A study of Mus musculus with 12 samples.

Results

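The comparison described here was knockdown of the RNA-binding protein TLS in primary hepatocytes that carry PGC-1alpha. It took the 6 arrays of PGC-1alpha +/+ cells out of the 12 arrays of the study, chosen by their labels. All cells came from C57BL/6 mice and were grown on collagen-coated plates in serum-containing medium with 100 nM dexamethasone and 100 nM insulin. Each of 3 +/+ mice gave 1 culture infected with an adenovirus encoding a control short hairpin RNA (control) and 1 infected with an adenovirus encoding a hairpin against TLS (shTLS). Infection was at a multiplicity of 5, and RNA was harvested 24 h after infection. The other 6 arrays came from 3 PGC-1alpha -/- mice treated the same way. They entered the normalization, the estimate of the spread and the test of whether the response differed by genotype. The labels name 1 hairpin vector against TLS and 1 control vector, and both groups received adenovirus. They give no age or sex of the mice and no part of the gene that the hairpin targets.

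TLS belongs with EWS and TAF15 to the FET family of nuclear proteins. These proteins bind RNA and single-stranded DNA, associate with RNA polymerase II and splicing factors, and take part in the response to DNA damage. PGC-1alpha, the product of Ppargc1a, coactivates transcription factors and in liver acts on genes of mitochondria, antioxidant defence and gluconeogenesis. The series title names the activity of TLS in cells with and without PGC-1alpha, so the comparison asks which transcripts change when TLS is reduced while PGC-1alpha is present.

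Levels are log2 signals after quantile normalization, and differences are shTLS minus control on that scale, paired by mouse. Control arrays were brighter: their 75th percentile of signal lay between 764.4 and 924.3, that of shTLS arrays between 326.9 and 539.0. Well above background were 22644 to 25650 probes on control and 23353 to 25328 on shTLS arrays. Quantile normalization removes such a difference. Scaled to the spike-in control spots instead, the median of all genes was -0.85, so directions below are relative to all genes on an array. The 3 control arrays always held 1 position on their slides and the 3 shTLS arrays another, so position and vector cannot be told apart. All 12 hepatocyte markers on the array, among them Alb, were above background on all 6 arrays, and none was called.

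Markers of other liver cells were also detected. Of 17 markers of macrophages and Kupffer cells 12 were above background on all 6 arrays, as were 10 of 12 endothelial, 8 of 13 stellate and 8 of 10 cholangiocyte markers. The summed signal of the cholangiocyte markers was 41900 to 145000 on control and 19730 to 45310 on shTLS arrays, lower in each mouse. Such a sum is led by its brightest member, on each array the secreted protein Spp1. On the control array of mouse 1 Spp1 read 17.04 and the next brightest marker, Krt19, 12.41 (log2). The summed signal of the macrophage markers was 8139 to 22490 and 6185 to 13980, also lower in each mouse. For endothelial markers it was 6911 to 9794 and 7115 to 9960, and for stellate markers 15590 to 25750 and 12530 to 21150. Among lymphocyte and neutrophil markers 1 of 12 was above background on all 6 arrays, and Cd8a, Nkg7 and Ncr1 on none. Krt19, Tspan8 and Spp1 of the cholangiocyte markers and Marco and Mpeg1 of the macrophage markers were called lower, and the lymphocyte marker Cd3e and the neutrophil marker S100a8 were called higher. In such bulk RNA, fewer cells of a type and less RNA per cell cannot be told apart.

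The gene of the coactivator itself and those of the other FET proteins were not called. Ppargc1a read 9.03, 10.39 and 8.23 in control cells and 8.56, 10.99 and 8.42 with shTLS, a difference of 0.11 (SE 0.24, adjusted p = 0.773). This is limma's moderated test with the mouse as a block, adjusted by Benjamini-Hochberg over 17580 genes, as are the adjusted p-values below unless stated. Those given for another probe of a gene come from the same model fitted to all tested probes and adjusted over them. Ppargc1a was lower in mouse 1 and higher in mice 2 and 3. Ewsr1 and Taf15 had differences of 0.37 and 0.23.

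Of 17580 genes, 3103 were called at an adjusted p under 0.05, which is 17.7%. Of these 1684 were higher with shTLS (9.58% of all genes) and 1419 lower (8.07%), and 3097 had the same sign in all 3 mice. The groups did not overlap in 1987 of the called genes. Over all genes tested 21.0% had groups that did not overlap. Rises were larger than falls. By 4-fold or more 512 genes rose and 93 fell, and by 8-fold or more 191 rose and 10 fell. The median fold of the calls was 2.60 for rises and 2.16 for falls. Of the calls, 1116 rises and 1218 falls were above background on all arrays of both groups. The folds of the others rest partly on signals not above background. With probes above background on all 6 +/+ arrays, 47.6% of 2380 calls were higher. The call count rests on the pairing and on the spread pooled over both genotypes. It was 693 (3.94%) with only the 6 +/+ arrays, paired, and 240 (1.37%) without the block, all of the latter among the 3103. It was 1294 without mouse 1, 1685 without mouse 2 and 1557 without mouse 3. Scaled to the spike-ins, 650 of 10557 calls were higher (6.16%), against 54.3% here and 66.4% with 75th percentile scaling. These shares over all genes are the background for the counts of list members below. Of the 1684 rises 1432 stayed positive and 645 were called higher with spike-in scaling, and all 1419 falls stayed negative.

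**Figure D1:**
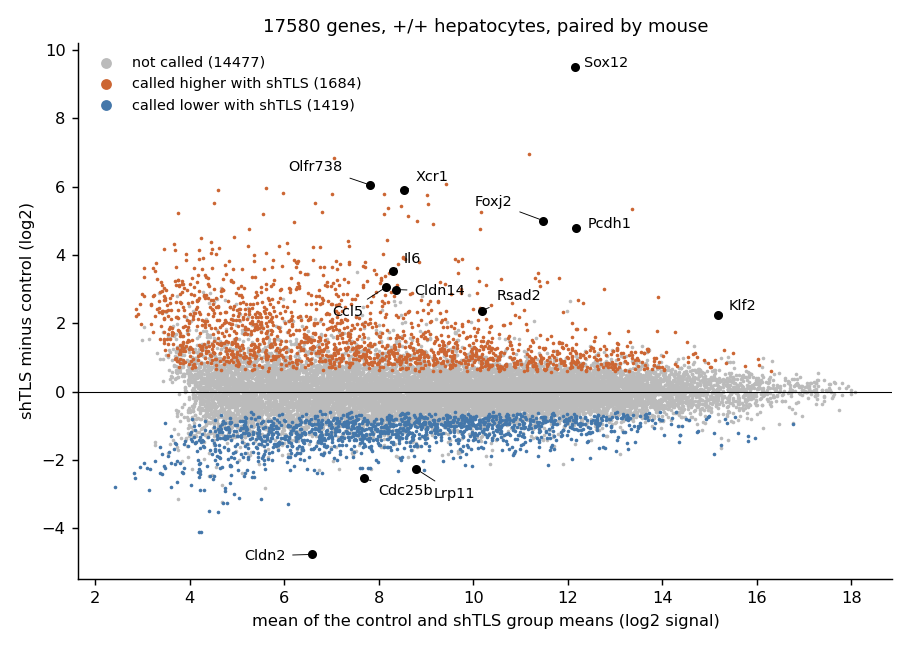
Difference between shTLS and control (log2, y axis) against the mean level (log2 signal, x axis) of 17580 genes in +/+ hepatocytes, with genes called higher in orange, called lower in blue and the others in grey, and selected named genes as black points. Rises reach 9.50 (Sox12), and the lowest labelled fall is Cldn2 at -4.76, which was above background on 2 of 3 shTLS arrays.

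The largest rises were in genes of unrelated function. The rule took called genes with a symbol, 1 sign in 3 mice and signal above background on all 6 arrays. Of the 15 largest rises 13 had groups that did not overlap, beside 11.4% of all genes that were higher without overlap. Genes picked by size are prone to separate, so this count is not a result about them. Sox12, which encodes an SRY-related transcription factor, read 5.08, 6.35 and 10.79 in control cells and 16.38, 17.29 and 17.05 with shTLS. All shTLS values lay within a narrow range, and the control of mouse 3 stood above the other controls. The difference was 9.50 (SE 1.09, adjusted p = 0.0038). Xcr1, a chemokine receptor of dendritic cells, read 4.95, 5.13 and 6.73 against 10.95, 11.51 and 12.01 (59.1-fold, adjusted p = 0.000179). Its other probe was above background on no array. Terc, the RNA component of telomerase, read 4.53, 5.43 and 6.58 against 9.88, 11.39 and 11.37, a rise of 5.36 (SE 0.24, adjusted p = 0.000179). Like Sox12 and Xcr1, it had its highest control value in mouse 3, as did 13 of the 15 genes.

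Foxj2, a forkhead transcription factor, rose by 5.00 (SE 0.26, adjusted p = 0.00024). Pcdh1, a protocadherin of cell adhesion, rose by 4.79 (SE 0.23, adjusted p = 0.000203). Rises between 3.85 and 6.05 were also found for the olfactory receptors Olfr738, Olfr149 and Olfr930, the somatostatin receptor Sstr4, Adprhl1, Fam166c and Asb7. The other probe of Asb7, a subunit of ubiquitin ligases, went the other way, with a difference of -1.17 (SE 0.39, adjusted p = 0.079). That of Fam166c was above background on 0 control and 1 shTLS arrays. Tgm5, a transglutaminase, read 9.02, 4.96 and 5.62 against 13.33, 10.12 and 7.98, and AU018091 read 9.04, 5.00 and 5.63 against 13.52, 9.85 and 8.02. Both genes thus had nearly the same profile over the 6 arrays, with mouse 1 highest. Vpreb3, a component of the surrogate light chain of B cells, rose by 3.89 (SE 0.55, adjusted p = 0.0073), and its other probe by 3.26. All 15 rises were also called with only the +/+ arrays and without any 1 mouse, and 12 of them without the block.

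Among called genes not above background on any control array and above it on all shTLS arrays were 29 with a symbol. They passed the filter only through the group where they are high, so their p-values add no separate support. Here a fold is a lower bound, set against the lowest signal that counted as above background on each array. Il12rb2, which encodes a chain of the receptor for interleukin 12, read 1.16, 1.11 and 1.15 against 5.96, 6.37 and 6.76 and was at least 6.68-fold higher (adjusted p = 0.000157). Tmem63c was at least 5.26-fold higher, Art1, an ADP-ribosyltransferase, at least 4.30-fold, and Myh7, the slow myosin heavy chain of muscle, at least 3.98-fold. Oosp1 and Trem1, a receptor of myeloid cells, were at least 3.44-fold and 3.39-fold higher. The other probes of Tmem63c and Trem1 were above background on no array, so these bounds rest on 1 probe each. That of Myh7 rose by 2.70, and that of Oosp1 was above background on 0 control and 2 shTLS arrays. In the other direction 12 called genes with a symbol were above background on all control and on no shTLS arrays. They passed the filter only through the control group, so the same limit holds for their p-values. Entpd8, an ectonucleotidase of the bile canaliculus, read 7.20, 6.98 and 5.10 against 3.48, 3.62 and 3.20 and was at least 6.55-fold lower (adjusted p = 0.0107). Spon1 was at least 3.88-fold lower, Hacd4 3.04-fold, the macrophage elastase Mmp12 2.79-fold, Zc3h6 2.64-fold and Prr36 2.17-fold. The other probe of Hacd4 was above background on no array, and that of Zc3h6 on 0 control and 1 shTLS arrays.

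The largest falls among genes above background on all arrays included regulators of mitosis, transporters and markers of non-parenchymal cells. Cdc25b, a phosphatase that starts mitosis, read 10.01, 7.50 and 9.35 against 7.46, 5.47 and 6.31, a difference of -2.54 (SE 0.25, 5.82-fold lower, adjusted p = 0.00218). Pbp2, a phosphatidylethanolamine-binding protein, read 10.20, 10.50 and 10.38 against 8.19, 8.48 and 8.36, so that it fell by nearly the same amount in each mouse. Its difference was -2.02 (SE 0.18, adjusted p = 0.00151). Lrp11, a protein of the lipoprotein receptor family, read 9.66, 10.02 and 10.05 against 8.25, 7.35 and 7.37 (adjusted p = 0.00988). The groups did not overlap for any of these genes, nor for Jade2, a histone acetyltransferase subunit, which fell by 2.28 (SE 0.19, adjusted p = 0.00117). Slc26a1, a sulphate and oxalate transporter of hepatocytes, fell by 2.34 (SE 0.33), and its other probe by 2.53. Slc16a12, a transporter of the monocarboxylate family, and Pxmp4, a peroxisomal membrane protein, had differences of -2.23 and -2.25. The other probe of Pxmp4 gave -1.34 (SE 0.47, adjusted p = 0.0887). Tubb2b, Itgb6, Arhgef39, Ube2c, Aurkb, Ly6a, Krt19 and Marco made up the rest, with differences from -2.37 to -2.01. The other probe of Arhgef39 gave -1.29 (SE 0.47, adjusted p = 0.0979). Of the 15 falls, also picked by size, 11 had groups that did not overlap, beside 9.66% of all genes that were lower without overlap. Of the same 15 falls 8 were called with only the +/+ arrays, 10 without any 1 mouse and 2 without the block.

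Part of the interferon response genes rose. Interferons act through a complex of transcription factors that binds an interferon-stimulated response element in the promoters of antiviral genes. Of 32 list members tested 10 rose and 0 fell (31.2%, against 9.58% of all genes called higher), 28 had a positive difference, and the median was 0.70, beside 0.00 over all genes. It was 0.58, 1.30 and 0.26 in mice 1, 2 and 3. With spike-in scaling the list's median was -0.22, where that of all genes was -0.85, and 2 members were called higher and 6 lower. Of the 10 calls 2 were left without mouse 1, 1 without mouse 2 and 5 without mouse 3, 1 with only the +/+ arrays and 0 without the block.

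Where RefSeq promoters were at hand, the response element was looked for as the letters GAAA, any 2 bases (NN) and GAAA again, on either strand, from 250 bases before to 50 after each start site. It occurs in 3.44% of 32851 such windows of all genes. These belong to 27025 genes, of which 3.99% hold it in a window. Of 25 tested list members with a window 15 held it, 6 of the 7 that rose and 9 of the 18 that did not. The list was made of interferon response genes, so a share above that of all genes follows from its choice. A match is a description of the letters and does not show binding. The windows of 4 genes that rose are shown as examples of where the motif lies; capitals mark the motif as found on either strand, and overlapping matches run together. They are from GRCm38.p6, at chr12:26456403-26456702 on the minus strand for Rsad2, chr4:156200769-156201068 on the minus strand for Isg15, chr3:142559794-142560093 on the plus strand for Gbp3 and chr3:142620413-142620712 on the plus strand for Gbp2.
Rsad2: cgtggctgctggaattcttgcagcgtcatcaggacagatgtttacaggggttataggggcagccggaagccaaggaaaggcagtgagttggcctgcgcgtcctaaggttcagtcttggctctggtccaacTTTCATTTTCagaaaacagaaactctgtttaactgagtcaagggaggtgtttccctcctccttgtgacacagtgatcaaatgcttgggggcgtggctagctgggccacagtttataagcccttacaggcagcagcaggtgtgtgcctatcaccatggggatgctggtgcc
Isg15: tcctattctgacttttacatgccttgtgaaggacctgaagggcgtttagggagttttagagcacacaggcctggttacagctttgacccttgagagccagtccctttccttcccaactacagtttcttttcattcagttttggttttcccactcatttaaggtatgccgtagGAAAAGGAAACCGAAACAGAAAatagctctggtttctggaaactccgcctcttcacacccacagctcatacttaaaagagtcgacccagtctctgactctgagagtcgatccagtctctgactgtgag
Gbp3: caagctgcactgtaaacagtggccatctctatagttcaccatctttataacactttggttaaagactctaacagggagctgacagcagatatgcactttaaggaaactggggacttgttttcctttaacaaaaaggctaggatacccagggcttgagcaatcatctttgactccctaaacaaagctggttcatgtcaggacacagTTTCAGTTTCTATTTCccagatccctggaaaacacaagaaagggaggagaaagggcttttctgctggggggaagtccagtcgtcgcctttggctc
Gbp2: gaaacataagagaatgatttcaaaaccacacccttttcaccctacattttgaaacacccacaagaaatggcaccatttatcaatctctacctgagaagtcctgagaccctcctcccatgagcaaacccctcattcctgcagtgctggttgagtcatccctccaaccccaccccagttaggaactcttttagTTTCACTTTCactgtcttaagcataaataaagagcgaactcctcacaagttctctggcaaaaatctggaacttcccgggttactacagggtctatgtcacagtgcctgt

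The first base of the motif lies 120 bases before the start site in Rsad2, 78 in Isg15, 45 in Gbp3 and 59 in Gbp2. Isg15 holds 3 overlapping matches and Gbp3 holds 2. Irgm1 and Eif2ak2, which also rose, hold it from 30 bases before and 18 bases after the start.

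Rsad2, which encodes the antiviral protein viperin, read 8.95, 9.04 and 8.99 in control cells and 11.92, 11.98 and 10.19 with shTLS. Controls were close to each other, and mouse 3 had the smallest rise. The difference was 2.37 (SE 0.44, 5.18-fold, adjusted p = 0.0156), and the other 2 probes gave 2.75 and 2.79. Isg15, a ubiquitin-like protein, read 10.59, 8.61 and 10.07 against 12.60, 12.21 and 11.22 (difference 2.25, SE 0.51, adjusted p = 0.028). Gbp3, a guanylate-binding protein, read 9.78, 8.32 and 8.64 against 11.55, 10.63 and 9.76, so that the groups overlapped by 1 array. It rose by 1.74 (SE 0.31, adjusted p = 0.0142). Gbp2, of the same family, read 7.93, 7.69 and 7.23 against 8.36, 9.47 and 8.59 (difference 1.19, SE 0.30, adjusted p = 0.038).

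Ifi44 rose by 1.51 (SE 0.42, adjusted p = 0.0486) and was above background on 2 of 3 control arrays, so it passed the filter only through the shTLS group. Eif2ak2, the RNA-activated kinase PKR, had a difference of 1.41, and Zbp1, a sensor of nucleic acids, one of 1.32. Usp18, which removes ISG15 from proteins, rose by 1.20 (SE 0.20, adjusted p = 0.012), and the GTPase Irgm1 by 0.78. The largest difference of the list, 2.48 for Ifit1, did not pass (SE 0.78, adjusted p = 0.0679).

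Of 14 tested sensors and kinases upstream of interferon 1 was called with its brightest probe, Ikbke, a kinase that phosphorylates interferon regulatory factors, which fell by 1.31 (SE 0.22, adjusted p = 0.0115). Tbk1, the related kinase, had a difference of 0.72 (adjusted p = 0.0596), and its other probe rose by 0.96 (SE 0.20, adjusted p = 0.0211). Ddx58, which encodes the RNA sensor RIG-I, had a difference of 0.77 (adjusted p = 0.0592).

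Among cytokines and chemokines 4 rose and 1 fell of 25 tested (20% called, near the 17.7% of all genes), with a median of 0.02. Il6, the main inducer of the acute phase response of hepatocytes, read 5.62, 7.59 and 6.36 in control cells and 9.09, 10.85 and 10.25 with shTLS. Each mouse rose by a similar amount, and no shTLS array reached down to the controls. The difference was 3.54 (SE 0.42, 11.6-fold, adjusted p = 0.00439), and 0.0121 with only the +/+ arrays. Ccl5, a chemokine of T cells and monocytes, read 6.73, 7.21 and 5.95 against 8.96, 11.23 and 8.89 (8.35-fold, adjusted p = 0.00312). Cxcl10, an interferon-inducible chemokine, read 10.35, 10.64 and 11.21 against 12.96, 14.06 and 12.16, without overlap. It rose by 2.32 (SE 0.49, adjusted p = 0.0229). Il11 rose by 1.68 (SE 0.20, adjusted p = 0.00401), and Il18 fell by 0.65 (adjusted p = 0.0466). Ccl2, the monocyte chemokine, had a difference of -0.63 (adjusted p = 0.221), and none of 10 regulators of NF-kappaB passed. The summed signal of macrophage markers was lower with shTLS in each mouse, by 0.35 to 0.69, and its part in these differences was not tested. Of 20 acute phase genes 0 rose and 1 fell. That gene, Crp, read 7.31, 7.02 and 4.27 against 4.01, 2.54 and 3.29 and was above background on 1 of 3 shTLS arrays. Saa1 had a difference of -0.14 (adjusted p = 0.686). Without mice 1, 2 and 3 in turn, 3, 3 and 4 cytokine genes rose and 0 fell, and 0, 0 and 1 acute phase genes fell.

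Among nuclear RNA-binding proteins 5 of the 7 rises were in SR proteins, which bind exonic enhancers and promote splicing; whether families differ was not tested. All 7 SR genes tested had positive differences, 5 rose, and their median was 1.03 (1.02, 1.23 and 0.68 in mice 1, 2 and 3). With spike-in scaling the median was 0.16 and 5 of the 7 SR genes stayed positive, but 0 members of the whole list were called higher and 11 lower. Srsf2 read 12.50, 13.10 and 13.66 against 13.94, 14.47 and 14.46, with no overlap. It rose by 1.20 (SE 0.19, adjusted p = 0.0103), and the other 2 probes by 1.42 and 1.48. Srsf6 rose by 1.27 (SE 0.30, adjusted p = 0.0324) and Srsf1 by 0.87 (SE 0.16, adjusted p = 0.0166). Srsf4 and Srsf7 had differences of 1.02 and 1.12. Proteins of heterogeneous nuclear ribonucleoproteins had 1 rise and 1 fall among 13, with a median of 0.02. The fall was Hnrnpa3, whose brightest probe read 16.48, 15.92 and 16.21 against 15.22, 14.90 and 14.83. Another of its probes rose by 1.70 (SE 0.30, adjusted p = 0.0129), so the probes of this gene disagree. The rise was Hnrnpa2b1, with a difference of 0.85. Of the whole list of 31 genes 7 rose and 3 fell (32.3% called, against 17.7% of all genes). Without mice 1, 2 and 3 in turn 1, 2 and 5 rises and 2, 2 and 2 falls were left, and 0 rises were left without the block or with only the +/+ arrays.

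Of 30 genes that answer unfolded protein and translational stress 7 rose and 0 fell (23.3%, against 9.58% of all genes called higher), with a median of 0.39 (0.26, 0.43 and 0.60 by mouse). With spike-in scaling the median was -0.39, and 0 members were called higher and 9 lower. Hspa5, the chaperone BiP of the endoplasmic reticulum, read 15.57, 15.56 and 15.86 against 16.21, 16.30 and 16.81. The groups did not overlap, and the difference was 0.77 (SE 0.18, adjusted p = 0.0297). Atf3, a transcription factor induced by many stresses, read 9.97, 13.22 and 12.25 against 12.48, 14.26 and 13.11. Mice differed more from each other than the vectors did, and each mouse was higher with shTLS (difference 1.47, SE 0.40, adjusted p = 0.045). Ppp1r15a, which directs dephosphorylation of eIF2alpha, rose by 1.40 (SE 0.32) and the chaperone Dnajb9 by 1.31 (SE 0.28, adjusted p = 0.0239), with 1.31 and 1.35 from its other probes. Atf6, a sensor of unfolded protein, rose by 0.97, while its other probe gave 0.72 (adjusted p = 0.0854). Asns, an amino acid response gene, had a difference of 0.32 (adjusted p = 0.43), and none of 8 genes of that branch passed. The list had 1, 4 and 0 calls without mice 1, 2 and 3, and 0 without the block or with only the +/+ arrays.

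Targets of p53 had 5 rises and 0 falls among 28 (17.9%, against 9.58% of all genes called higher), with a median of 0.39. With spike-in scaling the median was -0.44, and 0 members were called higher and 9 lower. Bbc3, the proapoptotic protein PUMA, read 14.11, 14.11 and 14.48 against 15.18, 15.21 and 15.32, so that all shTLS arrays lay above the controls. It rose by 1.01 (SE 0.22, adjusted p = 0.0252). Mdm2, the ubiquitin ligase of p53, read 12.27, 13.71 and 13.09 against 13.31, 14.60 and 13.92 (difference 0.92, SE 0.19, adjusted p = 0.0205), and its other probe rose by 1.30. Polk, a translesion polymerase, rose by 1.02 and Eda2r by 1.13. Eda2r was above background on 2 of 3 control arrays, so it passed the filter only through the shTLS group. Cdkn1a, which encodes p21, was not called (difference 0.22, SE 0.18, adjusted p = 0.416), nor was Bax. Calls of this list were 0, 3 and 0 without mice 1, 2 and 3, and 0 without the block or with only the +/+ arrays. Genes of DNA damage signalling and repair, a field in which TLS is known to act, had 2 rises, Chek1 and Lig4, and 2 falls, H2ax and Lig3, among 26, and a median of 0.01. That is 15.4% called, against 17.7% of all genes. Chek1 and Lig4 turned negative with spike-in scaling (-0.18 and -0.33). The other probe of Lig4 gave 0.62 (adjusted p = 0.0655), and that of Chek1 0.84 (adjusted p = 0.0191). H2ax read 13.55, 11.96 and 12.35 against 11.69, 11.06 and 11.27 (difference -1.28, SE 0.31, adjusted p = 0.0338). Brca1 had a difference of 0.74 (SE 0.38, adjusted p = 0.213), with mouse 3 lower. Leaving out any 1 mouse left 0 calls in this list.

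Of 15 cytosolic heat shock genes 2 rose and 2 fell (26.7% called, against 17.7% of all genes). Hspa1a, the inducible HSP70, read 8.89, 9.40 and 10.39 against 10.96, 10.80 and 11.40 and rose by 1.49 (SE 0.26, adjusted p = 0.0128), and Hsph1 rose by 0.87. Hspb1 fell by 0.97, and Hsf1, the transcription factor of the heat shock response, by 0.83 (SE 0.19, adjusted p = 0.0291). Leaving out any 1 mouse left 1 rise and 0 falls.

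**Figure D2:**
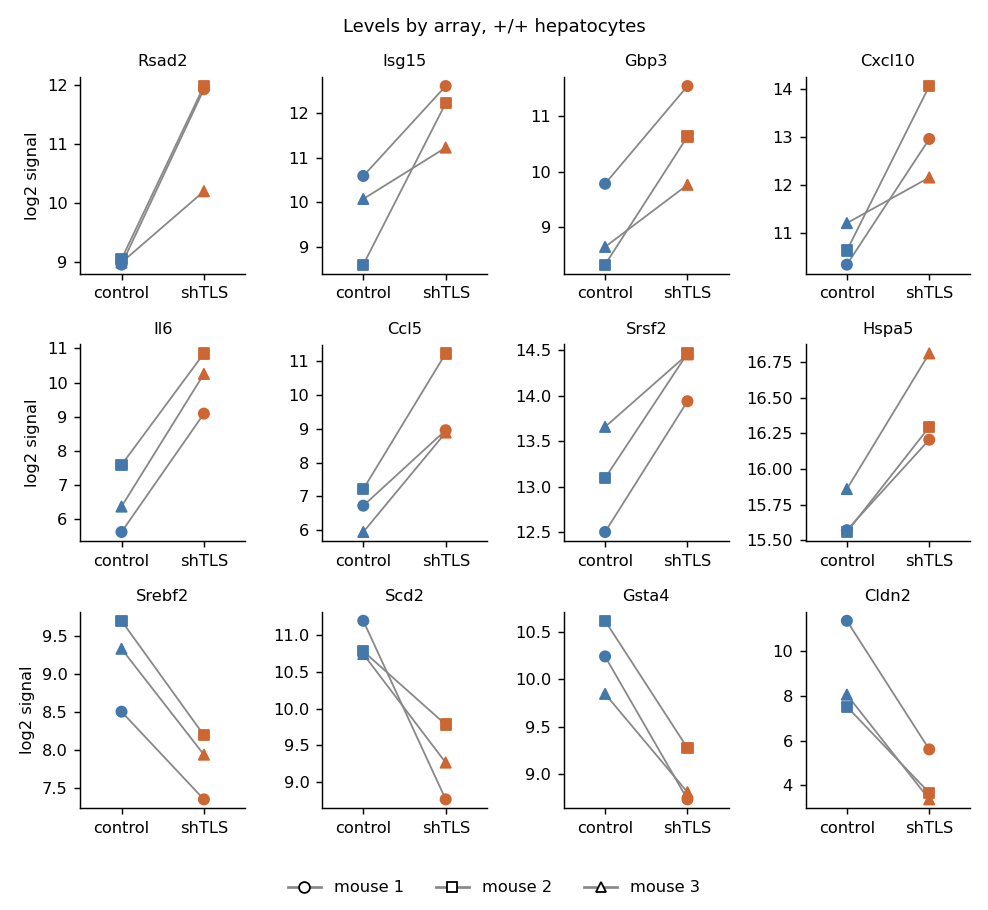
Log2 signal of 12 named genes on the control and shTLS array of each of the 3 +/+ mice, joined by mouse; each panel has its own axis range. Each line of the first 8 genes rises and each line of Srebf2, Scd2, Gsta4 and Cldn2 falls, while the starting levels differ between mice (7.52 to 11.36 for Cldn2).

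Part of the lipid synthesis genes fell. SREBP transcription factors, held in the endoplasmic reticulum by INSIG proteins, drive the synthesis of fatty acids and cholesterol and the uptake of cholesterol. All 22 tested genes of fatty acid and triglyceride synthesis had negative differences and 7 fell (31.8%, against 8.07% of all genes called lower), with a median of -0.65 (-0.76, -0.38 and -0.65 by mouse). Scd2, a stearoyl-CoA desaturase, read 11.20, 10.79 and 10.75 against 8.77, 9.78 and 9.27 without overlap. It fell by 1.64 (SE 0.30, adjusted p = 0.015). Gpam, which starts glycerolipid synthesis, read 8.73, 9.07 and 8.40 against 6.96, 8.69 and 7.26, with the smallest fall in mouse 2 (difference -1.10, SE 0.28, adjusted p = 0.0372). Dgat1, the last step to triglyceride, fell by 0.96 (SE 0.19, adjusted p = 0.0179) and Insig2 by 0.88. Agpat2, Fads1 and Me1 had differences of -0.86, -0.77 and -0.73. Srebf1, the regulator itself, read 13.86, 13.56 and 13.78 against 12.87, 13.26 and 12.66 and missed the threshold (difference -0.80, SE 0.23, adjusted p = 0.054). The main enzymes Acaca and Fasn had differences of -0.62 and -0.33 and did not pass. Of the 7 calls 1, 4 and 2 were left without mice 1, 2 and 3, and 0 without the block or with only the +/+ arrays.

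Of 24 genes of cholesterol synthesis and uptake 5 fell and 0 rose, with a median of -0.37. That is 20.8%, against 17.7% of all genes called and 8.07% called lower. Srebf2, which encodes the factor for these genes, read 8.50, 9.69 and 9.33 against 7.35, 8.19 and 7.93 and fell by 1.35 (SE 0.19, adjusted p = 0.00777). The groups did not overlap, and it was also called with only the +/+ arrays. Pmvk and Fdps of the early pathway had differences of -0.83 and -0.75. The other probe of Pmvk gave -0.66 (adjusted p = 0.0661). Without mice 1, 2 and 3 in turn 3, 4 and 2 members fell, and without the block 0.

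Some conjugating enzymes of detoxification also fell. All 19 tested glutathione transferases had negative differences and 6 fell (31.6%, against 8.07% of all genes called lower), with a median of -0.70 that was -1.21, -0.60 and -0.46 by mouse. Gsta4, which conjugates products of lipid peroxidation, read 10.24, 10.62 and 9.85 against 8.73, 9.27 and 8.80 (difference -1.30, SE 0.20, adjusted p = 0.00907). Gstt3, Gstm4 and Gsta2 fell by 1.30, 1.22 and 1.20, and Gsta3 and Mgst1 each had a difference of -0.79. Gsta1 missed the threshold (difference -0.77, SE 0.28, adjusted p = 0.0989). Without mice 1, 2 and 3 in turn 1, 5 and 1 of the family fell, with only the +/+ arrays 1, and without the block 0. Near-identical paralogs of this family can share a probe.

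Among 20 genes of glucuronide, sulphate and acyl conjugation 5 fell and 0 rose, with a median of -0.71. That is 25%, against 17.7% of all genes called and 8.07% called lower. None of the 7 genes of sulphation was called, and 3 of them had positive differences. Glyat, the mitochondrial glycine acyltransferase, read 12.39, 11.41 and 11.47 against 10.21, 10.03 and 9.47. It fell by 1.85 (SE 0.21, 3.62-fold, adjusted p = 0.00355) and was the only member of the list called without the block (adjusted p = 0.0248). Ugt2b35 fell by 1.60 (SE 0.37, adjusted p = 0.0286), and Ugdh, which supplies the glucuronate donor, by 1.02 (SE 0.21). Nnmt fell by 0.96. Sult1a1 read 13.08, 10.24 and 9.92 against 9.86, 9.68 and 9.69, so that its difference of -1.34 (SE 0.72, adjusted p = 0.228) came mostly from mouse 1. Calls were 1, 5 and 1 without mice 1, 2 and 3.

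Of 30 antioxidant genes 3 fell and 0 rose (10.0%, near the 8.07% of all genes called lower), with a median of -0.39. Txnrd2, the mitochondrial thioredoxin reductase, read 8.70, 8.36 and 7.98 against 6.87, 7.31 and 7.13 (difference -1.24, SE 0.24, adjusted p = 0.017). Mt1, a metallothionein, fell by 1.27 (SE 0.32) and the glutaredoxin Glrx by 1.15. No gene of superoxide and peroxide removal passed among 12, and Sod1 had a difference of 0.00 (SE 0.18). Calls were 0, 2 and 1 without mice 1, 2 and 3.

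Genes of PGC-1 coactivators and mitochondrial biogenesis were mostly not called: 1 of 19 rose and 1 fell. Tfb2m, a transcription factor of mitochondrial DNA, read 11.12, 10.47 and 11.71 against 12.31, 12.16 and 13.09. The groups did not overlap, and it rose by 1.42 (SE 0.21, adjusted p = 0.00897), with 1.36 from its other probe and an adjusted p of 0.045 with only the +/+ arrays. Ppara, the nuclear receptor of fatty acid oxidation, read 10.07, 10.18 and 7.98 against 7.67, 9.72 and 6.60 and fell by 1.41 (SE 0.38, adjusted p = 0.0443). Tfam had a difference of 0.25 and Esrra one of -0.02. Of 54 genes of oxidative phosphorylation and 34 mitochondrial ribosomal proteins 0 were called, with medians of -0.13 and -0.035 and a range from -0.85 to 0.58. Of 17 genes of the tricarboxylic acid cycle 1 fell, Dlat, by 0.65 (SE 0.16, adjusted p = 0.0388).

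Gluconeogenesis had 3 falls and 0 rises among 16 tested genes (18.8%, against 17.7% of all genes called and 8.07% called lower). G6pc3, a glucose-6-phosphatase subunit that is expressed in many tissues, read 9.70, 8.58 and 8.64 against 7.73, 7.22 and 7.12, with no overlap. It fell by 1.62 (SE 0.20, 3.08-fold, adjusted p = 0.00478). Slc37a4, the glucose-6-phosphate transporter, read 12.82, 11.96 and 10.68 against 10.29, 10.62 and 9.92 (difference -1.54, SE 0.35, adjusted p = 0.0275). Pck2, the mitochondrial carboxykinase, fell by 1.09 (SE 0.28), and the regulator Foxo1 missed the threshold with -0.70 (adjusted p = 0.0545), while its other probe gave -1.06 (adjusted p = 0.0148). Without mice 1, 2 and 3 in turn 1, 1 and 2 fell. Of 33 genes of fatty acid oxidation Acads and Cpt2 fell, by 1.28 and 0.81, and Pdk4, which restrains pyruvate oxidation, rose by 1.17 (SE 0.32, adjusted p = 0.0468). Cpt1a and Acadl were not called. In that list 9.09% of genes were called, against 17.7% of all genes, and 0, 2 and 0 calls were left without mice 1, 2 and 3. None of 12 insulin signalling genes passed.

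Several lists of differentiated hepatocyte function moved mainly in mouse 1. The median of 35 tested genes of cytochromes P450 and their regulators was -2.09 in mouse 1, 0.39 in mouse 2 and -0.07 in mouse 3. For urea cycle and amino acid breakdown it was -1.69, 0.16 and -0.01, for hepatocyte markers -1.41, 0.25 and 0.02, and for secreted plasma proteins -1.11, 0.09 and 0.20. Cyp3a11, the main inducible P450 of its family, read 13.79, 9.27 and 10.21 against 9.83, 9.88 and 10.14. In control cells of mouse 1 it was thus far above the other arrays, and its difference of -1.14 (SE 0.95, adjusted p = 0.424) did not pass. Mouse 1 had the lowest of the 3 medians in 29 of 43 lists, and the 3 medians had the same sign in 24. The summed signal of the hepatocyte markers was lower with shTLS by 0.64 in mouse 1 and higher by 0.02 and 0.15 in mice 2 and 3.

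**Figure D3:**
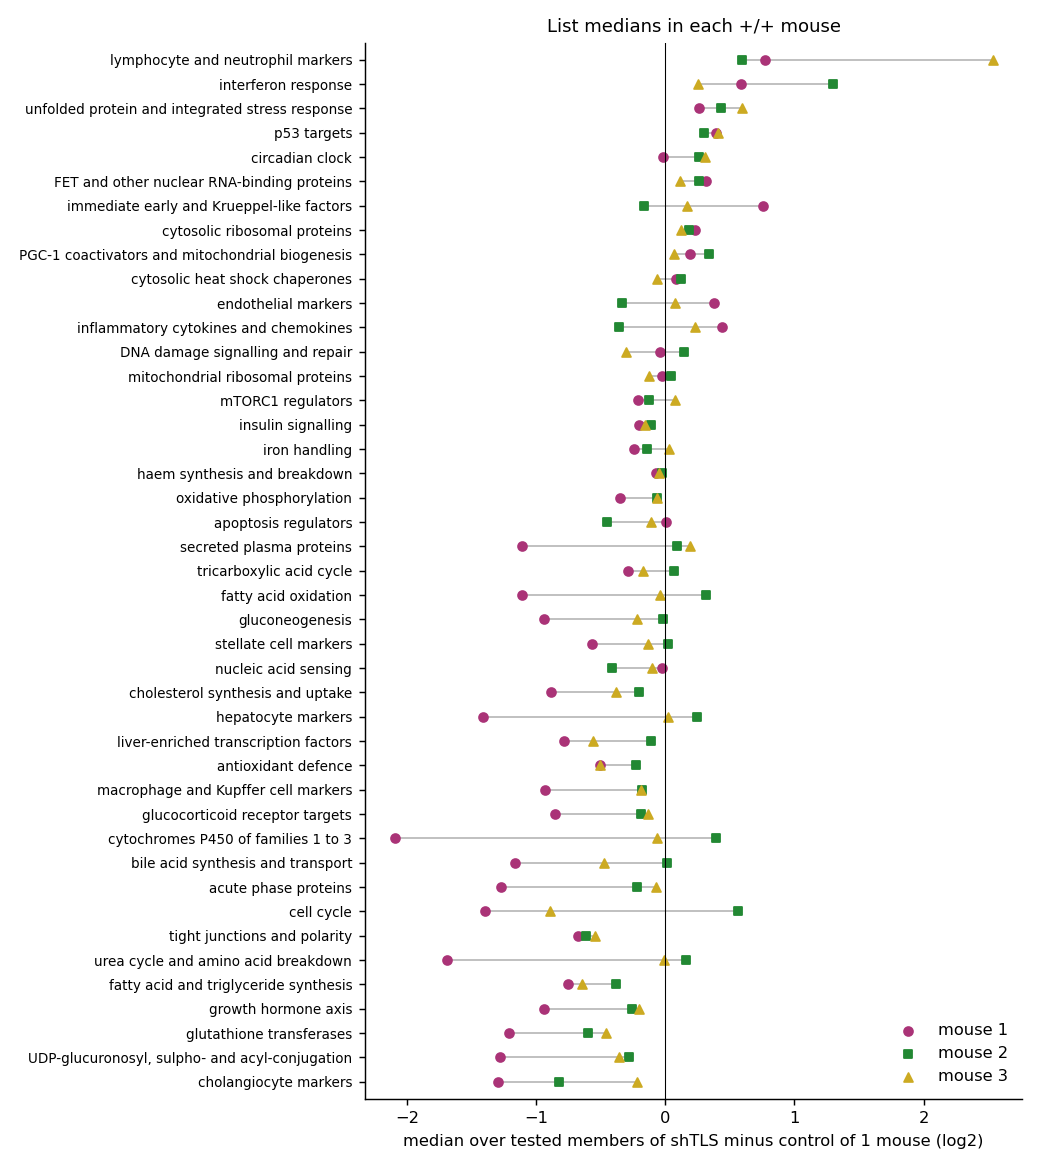
Median difference between shTLS and control over the tested members of each list, separately for the 3 +/+ mice (log2, x axis), with lists ordered by their median in the fit. The 3 mice lie close together for p53 targets, tight junctions and cytosolic ribosomal proteins and far apart for cytochromes P450, where mouse 1 is at -2.09 and mouse 2 at 0.39.

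Of the P450 list 2 rose and 1 fell (8.57% called, against 17.7% of all genes). Nr1i3, the nuclear receptor CAR that controls P450 induction, read 7.05, 7.10 and 6.14 against 9.46, 9.51 and 7.67, a rise of 2.12 (SE 0.25, 4.34-fold, adjusted p = 0.00418). No shTLS array overlapped with the controls. Cyp2c55 read 4.91, 4.10 and 5.19 against 5.34, 6.84 and 7.38 (difference 1.79, SE 0.41, adjusted p = 0.0297). It was above background on 2 of 3 control arrays, so it passed the filter only through the shTLS group. Ahr, the aryl hydrocarbon receptor, fell by 1.69 (SE 0.46, adjusted p = 0.047), while its target Cyp1a1 had a difference of 0.63 (adjusted p = 0.313). Among 24 urea cycle and amino acid genes Ass1 and Nags, both of the urea cycle, fell by 0.79 and 0.76 and 0 rose. Of 39 secreted plasma proteins Mbl2, a collectin, and Serpind1 fell, by 1.45 and 1.30. Alb had a difference of 0.01 (SE 0.20, adjusted p = 0.984). Of 17 liver-enriched transcription factors Onecut2 fell, by 1.57 (SE 0.35, adjusted p = 0.0266), and Hnf4a had a difference of -0.56 that was positive in mouse 2. The other probes of Onecut2 gave -1.58 (adjusted p = 0.0246) and -1.24 (adjusted p = 0.0858). Of 12 targets of the glucocorticoid receptor Dusp1 fell by 0.77, and the receptor gene Nr3c1 was not called. With each mouse left out in turn (1, 2, 3), the P450 list had 2, 2 and 2 calls, the plasma proteins 0, 1 and 0, the urea cycle and amino acid genes 0, 0 and 0, the transcription factors 0, 0 and 1, and the glucocorticoid targets 0, 1 and 0.

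Bile acid genes had 5 falls and 0 rises among 19, with a median of -0.48. That is 26.3%, against 17.7% of all genes called and 8.07% called lower. The falls included 3 of 7 transporters, namely the export pumps Abcc4, Abcc2 and Abcc3, with differences of -1.14, -1.07 and -0.79. Abcc4 read 12.21, 12.61 and 12.58 against 11.06, 11.65 and 11.27 (SE 0.17, adjusted p = 0.00926), and its other probe gave -0.22 (adjusted p = 0.429). Abcc2 read 12.07, 14.31 and 12.63 against 11.37, 12.85 and 11.58, falling in each mouse from different levels (SE 0.20, adjusted p = 0.0159). Cyp7b1 and Hsd3b7, enzymes of the alternative pathway, fell by 0.90 and 0.82. The bile acid receptor Nr1h4 read 12.35, 9.26 and 9.97 against 9.58, 11.03 and 9.82 and was not called. Once mouse 1, 2 or 3 was removed, 2, 1 and 1 genes fell.

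In the growth hormone axis 5 genes fell and 1 rose among 17 (35.3% called, against 17.7% of all genes). Hsd3b5, a male-specific hydroxysteroid dehydrogenase of liver, read 7.08, 6.70 and 4.99 against 1.17, 4.10 and 1.15 and was above background on 1 of 3 shTLS arrays. It was called lower, but with 2 shTLS arrays not above background the size of the difference is not measured. Elovl3, a fatty acid elongase, went the other way, from 1.25, 1.31 and 5.15 to 5.20, 5.18 and 6.91, and was above background on 1 of 3 control arrays. It was called higher, and for the same reason no size is given. Igfals and Igfbp3, which carry IGF1 in blood, fell by 1.08 and 1.02, and Stat5a, the signal transducer of the receptor, had a difference of -1.01. Igf1 and Ghr had differences of -0.89 and -0.69 and did not pass. Calls lower were 1, 2 and 2 without mice 1, 2 and 3, and calls higher were 0, 0 and 1.

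Cell cycle genes had 3 falls and 1 rise among 31 (12.9% called, against 17.7% of all genes). The mice disagreed: the list's median was -1.40 in mouse 1, 0.56 in mouse 2 and -0.89 in mouse 3. Without mouse 2, 14 members were called lower. Aurkb, a kinase of chromosome segregation, read 10.97, 8.82 and 10.08 against 8.37, 7.41 and 7.98 (difference -2.04, SE 0.25, adjusted p = 0.00471). Knl1, a kinetochore protein, read 7.62, 7.55 and 7.25 against 5.09, 6.13 and 5.50 and fell by 1.90 (SE 0.25, adjusted p = 0.00576), while its other probe gave -0.82 (adjusted p = 0.328). With their brightest probes Aurkb, Knl1 and Cdc25b fell in all 3 mice, while the other probe of Knl1 went from 4.05 to 5.26 in mouse 2. Ccna2, cyclin A, read 12.30, 10.44 and 12.17 against 10.81, 11.24 and 11.09, so that mouse 2 moved opposite to the others (adjusted p = 0.378). Mcm7, a replicative helicase subunit, rose by 0.86 (SE 0.19, adjusted p = 0.0272).

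Apoptosis regulators had 4 falls and 0 rises among 19, on both sides of the pathway (21.1%, against 17.7% of all genes called and 8.07% called lower). Bcl2l1, the antiapoptotic BCL-XL, read 11.14, 11.16 and 9.91 against 9.70, 9.86 and 8.52. It fell by a like amount in each mouse (difference -1.38, SE 0.18, adjusted p = 0.00509), and its other 2 probes gave -1.22 and -1.32. Mcl1, also antiapoptotic, fell by 1.00 (SE 0.20, adjusted p = 0.0193), with -0.56 (adjusted p = 0.128) from its other probe. Of the proapoptotic genes Bmf fell by 1.24 and Casp6 by 0.83, but another probe of Bmf gave 0.81 (SE 0.32, adjusted p = 0.123). When mouse 1, 2 or 3 was left out, 1, 1 and 2 genes fell.

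Genes of cell junctions had 5 falls and 1 rise among 19 (31.6% called, against 17.7% of all genes). The list's medians were -0.68, -0.62 and -0.54 in mice 1, 2 and 3. Cldn2, a claudin that forms pores for cations and water in tight junctions, read 11.36, 7.52 and 8.06 against 5.61, 3.66 and 3.37 and was above background on 2 of 3 shTLS arrays. Its difference was -4.76 (SE 0.35, adjusted p = 0.000816, and 0.0176 with only the +/+ arrays). It passed the filter only through the control group, so these p-values add no separate support. The size rests partly on a signal not above background. Cldn14 moved the other way, from 6.99, 6.65 and 6.98 to 9.06, 10.17 and 10.35 (difference 2.98, SE 0.30, 7.92-fold, adjusted p = 0.00239). The shTLS arrays of both genes lay apart from all controls. Tjp3, a scaffold of tight junctions, fell by 1.74 (SE 0.41), and Cldn3 by 1.26 (SE 0.21, adjusted p = 0.0124). Ceacam1 and Cldn12 had differences of -1.13 and -1.02. Cldn1 lay at the threshold with its brighter probe (difference -0.96, adjusted p = 0.0505, and 0.0483 in the fit to probes). Its other probe gave -2.06 (SE 0.34, adjusted p = 0.0113) and was above background on 1 of 3 shTLS arrays, so the same limit holds as for Cldn2. The epithelial cadherin Cdh1 had a difference of -0.65 (adjusted p = 0.0565). Calls lower were 2, 2 and 4 without mice 1, 2 and 3. Summed signal of cholangiocyte markers, led by Spp1, was lower in each mouse, by 1.05 to 2.59. Its part in these differences was not tested.

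Among immediate early and Krueppel-like factors 3 rose and 2 fell of 26 (19.2% called, near the 17.7% of all genes). Klf2 read 13.73, 14.16 and 14.30 against 15.74, 16.46 and 16.70, with no overlap, a rise of 2.23 (SE 0.17, 4.70-fold, adjusted p = 0.00105, and 0.00215 without the block). Its other probe gave -0.32 (SE 0.44, adjusted p = 0.635), so the rise rests on 1 probe. Klf11 and Fos rose by 1.23 and 0.97, with 0.32 (adjusted p = 0.525) from the other probe of Klf11, and Klf13 and Dusp1 fell by 0.96 and 0.77. Of 18 circadian clock genes the repressor Nr1d1, which encodes REV-ERBalpha, read 4.17, 7.29 and 6.75 against 6.41, 9.10 and 8.35 and rose by 1.88 (SE 0.21, adjusted p = 0.00346). Every mouse rose by 1.60 to 2.24, and mouse 1 was lowest on both arrays. Its other probe rose by 1.09. Nr1d2 rose by 0.72 (adjusted p = 0.042) and was at -0.21 with spike-in scaling. Clock and Per1 were not called with their brightest probes, and another probe of Clock rose by 1.02 (adjusted p = 0.0253). After removal of mouse 1, 2 or 3, 1, 2 and 2 rises and 0 falls were left among the immediate early and Krueppel-like factors, and 1 rise each time among the clock genes.

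Regulators of mTORC1 had 3 falls and 1 rise among 23 (17.4% called, near the 17.7% of all genes). Nprl3, a subunit of the GATOR1 complex that inhibits mTORC1 when amino acids are low, read 8.40, 8.50 and 7.85 against 6.42, 6.12 and 6.49. It fell by 1.90 (SE 0.24, 3.74-fold, adjusted p = 0.00482) and was called without the block as well (adjusted p = 0.0076). Castor1, an arginine sensor, fell by 1.19 (SE 0.22, adjusted p = 0.0156) and Lamtor1 by 0.61. Seh1l rose by 0.79 with its brighter probe and had -0.32 with the other, and it turned to -0.15 with spike-in scaling. Mtor was not called (difference -0.60, adjusted p = 0.199). Of the mTORC1 list 1, 3 and 1 calls were left without mice 1, 2 and 3. Among iron and haem genes the exporter Slc40a1 and the enzyme Fech fell by 0.90 and 0.87, and Hamp2 rose by 0.92. Hamp2 was above background on 2 of 3 control arrays, so it passed the filter only through the shTLS group. Hamp, the iron hormone, read 10.88, 12.94 and 9.72 against 8.13, 12.10 and 9.07 (difference -1.41, SE 0.53, adjusted p = 0.107). None of the iron and haem calls was left without any 1 mouse.

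Of 39 cytosolic ribosomal protein genes 37 had positive differences, but small ones, with a median of 0.17, and it was -0.18 with spike-in scaling. Only Rpl30 was called: it read 14.57, 14.36 and 14.99 against 15.56, 15.35 and 15.79 (difference 0.93, SE 0.16, adjusted p = 0.0128). The groups did not overlap for this gene.

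**Figure D4:**
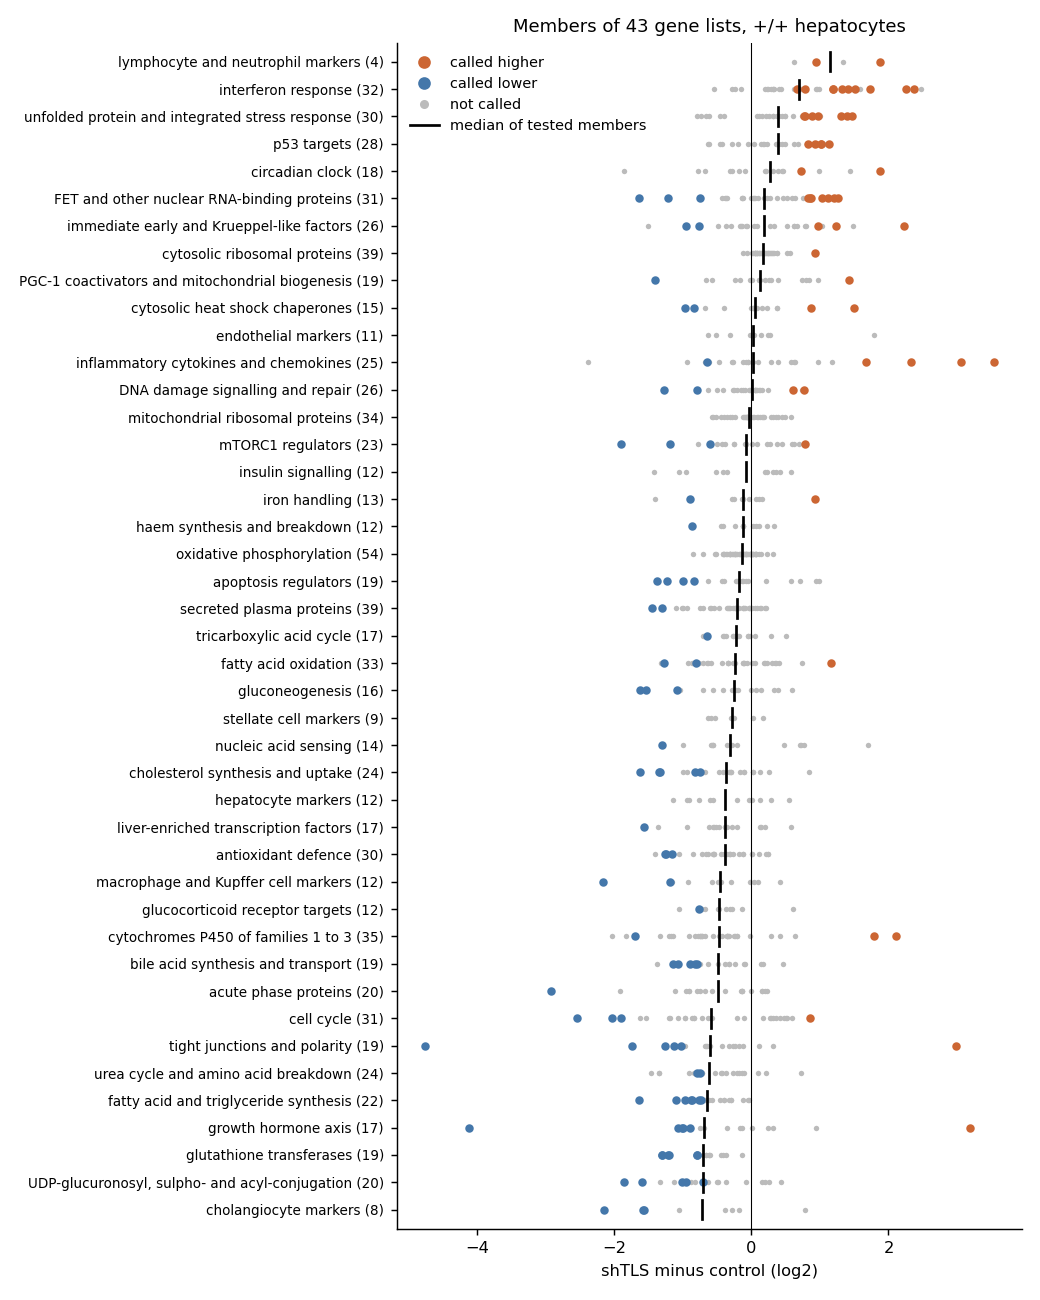
Difference between shTLS and control (log2, x axis) of each tested member of 43 gene lists in +/+ hepatocytes, with the number tested in brackets, called members in colour and the median as a bar. All called members of interferon response, stress response and p53 targets lie above 0, and all members of glutathione transferases and of fatty acid and triglyceride synthesis lie below 0.

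Markers of bile duct cells and macrophages were among the falls. Krt19, a keratin of bile duct cells, read 12.41, 14.89 and 10.66 against 9.27, 13.39 and 8.87, lower in each mouse although mouse 2 was far above the others (difference -2.15, SE 0.41, adjusted p = 0.0165). Spp1, osteopontin, read 17.05, 15.80 and 15.22 against 14.34, 14.91 and 14.12 (difference -1.57, SE 0.35, adjusted p = 0.0261). Tspan8 fell by 1.58. Of 8 bile duct markers tested 7 had negative differences. Epcam had a positive one, reading 5.75, 7.26 and 7.29 against 7.86, 7.13 and 7.65, and was not called. Of 12 macrophage markers tested Marco, a scavenger receptor, and Mpeg1 fell (16.7%, against 17.7% of all genes called and 8.07% called lower). Marco read 11.94, 10.96 and 10.29 against 9.47, 9.28 and 7.93 (difference -2.17, SE 0.49, adjusted p = 0.0272), and Mpeg1 had a difference of -1.19 (SE 0.27). Adgre1, which encodes F4/80, had 0.09 (SE 0.41, adjusted p = 0.891). In fits that left out mouse 1, 2 or 3, 1, 3 and 1 of the bile duct markers and none of the macrophage markers were called. None of 11 endothelial or 9 stellate cell markers passed. Cd3e rose by 0.94. S100a8 was called higher but was above background on 1 of 3 control arrays. It passed the filter only through the shTLS group, so no size is given. With spike-in scaling the median of each of these marker lists was negative except that of lymphocyte and neutrophil markers, of which 4 were tested.

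The response to shTLS was not shown to depend on PGC-1alpha. In the test of the difference between the +/+ and the -/- response, limma called 0 of 17580 genes. Each alternative setting run for this test also called 0. At an unadjusted p under 0.05 were 240 genes, which is less than a 0.05 share of all. Of the 3103 genes called in +/+ cells 3086 had the same sign in -/- cells (99.5%) and 1434 were called there too. Both sets of calls used a spread pooled over the genotypes, so these counts are not independent agreement. The share with the same sign over all genes tested is not given beside them. The arrays of both genotypes shared slides, and the deviations of the mouse pairs from their mean correlated by 0.58, 0.14 and 0.61 across genes between +/+ and -/- mice of the same number. The main fit took the pairs of both genotypes as independent, and the effect of the shared slides on its result was not tested. In -/- cells the difference was 9.14 for Sox12, 2.91 for Il6 and -3.68 for Cldn2. A test that misses the threshold with 3 mice per genotype does not show that the responses were equal.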

How the data were processed

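RNA of 12 hepatocyte cultures was hybridised to 1-colour 4x44K mouse arrays, 1 array a culture. Per the file headers, the intensity values were extracted with Agilent Feature Extraction 10.1.1.1, which subtracted background within each array and wrote the flags for background, saturation and outliers. The authors' deposited table holds log2 values after a floor of 1 and quantile normalization in GeneSpring, per the labels' design text, and was an alternative. Here the processed signal was quantile normalized over the 12 arrays without control spots, floored at 1 and taken to log2; outlier spots were left out. Probes well above background on all 3 arrays of either +/+ group were kept (23122 of 41174), and the brightest represented its gene (17580 genes, 12188 with a symbol).

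limma 3.58.1 (R 4.3.3) was fitted to all 12 arrays with the mouse as a block, and p-values were adjusted by Benjamini-Hochberg over all genes with a threshold of 0.05. The pairing comes from the labels, where each mouse gave both cultures; deviations of the cultures of a mouse correlated by 0.455 to 0.673, and by at most 0.0987 between mice. The p-values set the mean paired difference against the spread of such differences between mice. That spread is pooled over both genotypes and moderated over genes by limma. An exact test of 3 against 3 arrays cannot go below p = 0.1, so none was used. The scripts were tested on simulated data.

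Genes named are Ppargc1a, the 15 largest rises and falls among called genes with a symbol, 1 sign in 3 mice and signal above background on all 6 arrays, the 6 largest bounds each way, and from each list up to 4 called members and the first of each role. Other list members were named after their values were seen. Some genes, and the check of the targeted gene, are not reported here; counts and medians of lists include all tested members. The comparison and the 43 lists were chosen with earlier results of these data known. Promoters are from RefSeq, GRCm38.p6. The normexp alternative used median signals with an offset of 50. The number of arrays limits the precision.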

Additional observations from a re-analysis of the deposited data

How the results depend on the processing

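Of 3103 called genes in the fit reported, 240 were called without the replicate block, and the +/+ arrays alone gave 693 calls with the replicate block and 69 without it. Without 1 mouse the count ranged from 1294 to 1685. Spike-in scaling gave 10557 calls and no filter on dim probes gave 1743, with more genes tested. Blocking on replicate number, 75th percentile scaling, normexp correction, the deposited table, the filter on all 6 arrays and the mean of a gene's probes gave 2380 to 3807. The count of genes whose response differed by genotype was 0 in each setting run for it.

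Of 147 named genes called, 26 stayed called without the block, 50 with only the +/+ arrays and 64 to 83 without 1 mouse. With spike-in scaling 116 stayed called, and 4 rises reversed: Nr1d2 to -0.21, Chek1 to -0.18, Lig4 to -0.33 and Seh1l to -0.15. The cause was not tested.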

Other observations

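Large rises were also found in probes without a gene symbol. Of 191 genes that rose by 8-fold or more 85 had none (44.5%), of 3103 called genes 1161 (37.4%), and of 17580 genes tested 5392 (30.7%). The probe for the transcript AK010953 read 6.16, 7.34 and 9.60 in control cells and 14.27, 14.75 and 14.94 with shTLS, a difference of 6.95 (limma, adjusted p = 0.001645). As for Sox12, the control of mouse 3 was the highest.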
